A study of Gallus gallus with 8 samples.

Results

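The genes described here encode 9 small leucine-rich proteoglycans (SLRPs) of connective tissue: LUM, KERA, OGN, DCN, EPYC, ASPN, OMD, FMOD and PRELP. They were taken by symbol from the table of normalized counts. All 9 had a row among the 16700 genes of the table, of which 14839 had at least 1 read in any library. The study sequenced poly(A) RNA of whole cornea from chicken embryos at embryonic day (E) 18 and of whole retina at E8, E16 and E18. Each of the 4 groups had 2 libraries. All embryos came from fertile eggs of a Cobb and Hubbard F1 hybrid, were incubated normally and received no treatment. The tissues were sequenced in bulk, so that fewer cells of a type and less RNA per cell cannot be told apart.

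SLRPs are secreted proteins with a core of leucine-rich repeats that binds collagen fibrils, and most members carry keratan sulfate or chondroitin and dermatan sulfate chains. In the corneal stroma, made by keratocytes of neural crest origin, they are known for controlling the diameter and spacing of the fibrils, on which transparency depends. The neural retina has no such stroma, and its matrix lies mainly in the inner limiting membrane, around photoreceptors and, in many species, around vessels. The chicken retina has no vessels of its own and is nourished from the choroid and the pecten.

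The reads assigned to genes ranged from 15662779 to 45670254 per library. Values are normalized counts, which the authors obtained by dividing the reads of a gene by 1 size factor of its library, and 1 read was worth between 0.586 and 1.84 of these units. Tissue identity was described on marker lists chosen with earlier results of these data known, so it was not an independent check. The 6 corneal endothelial markers were split, with 3 higher and 2 lower in E18 cornea than in E18 retina. Of 11 corneal epithelial markers tested, 11 were higher in E18 cornea than in E18 retina, where 36.9% of all genes were higher and 34.5% lower. Some of these markers, such as LYPD2 with at most 1 read in any retina library, could pass the filter on low counts only through the cornea libraries. Their direction was thereby fixed, so the count is a description. KRT12, a keratin of that epithelium, had 278539 and 256680 normalized counts in E18 cornea against 3.76 and 2.27 in E18 retina. Of 11 markers of retinal neurons and glia, 10 were lower in E18 cornea, and their summed level was 2922 to 4161 normalized counts in E18 cornea and 142287 to 143428 in E18 retina. The 2 libraries of a group were separate samples, described by the study as biological duplicates.

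All 9 members were higher in E18 cornea than in E18 retina. Across all 13194 genes tested, 36.9% were higher in E18 cornea and 34.5% were lower at an adjusted p under 0.05 (limma on log2(normalized count + 1), Benjamini-Hochberg adjustment over all genes). EPYC and ASPN passed the filter on low counts only through the cornea libraries and therefore had to differ between the tissues, so the count of 9 is given as a description. The median log2 fold change was 7.61 over the other 7 members and 8.68 over all 9, against 0.06 over all genes. OGN, which had no reads in E18 retina, lies above these medians also at its lower bound. Adding 1 before the log2 tends to understate the change of genes with few reads, but not where 1 library of a pair had none, as for DCN in E18 retina.

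Lumican (LUM), a keratan sulfate proteoglycan without which the mouse cornea turns cloudy, had 147625 and 189813 normalized counts in E18 cornea, against 10.02 and 5.30 in E18 retina. The retinal values stand for 8 and 7 reads. The tissues were far apart, with a log2 fold change of 14.29 ± 0.37 (SE, n = 2 each, adjusted p = 2.07e-08 by limma). Decorin (DCN), which carries 1 chondroitin or dermatan sulfate chain and binds collagen and transforming growth factor β, had 110367 and 104218 normalized counts in E18 cornea, against 15.0 and 0 in E18 retina. The log2 fold change of DCN was 14.71 ± 1.12 (SE, n = 2 each, adjusted p = 3.82e-06 by limma). This error rests on 1 spread per gene, fitted over all 8 libraries. The widest gap was in the E18 retina pair, with 12 reads in replicate 1 and none in replicate 2. The E8 retina pair, with 2 and 8 reads, came next. The fitted fold of DCN, 26783, was larger than the ratio of its pooled reads. Scaled for depth, the pooled reads of E18 cornea exceeded those of E18 retina by a factor of 24431 for LUM (95% exact counting interval 14812 to 43651) and of 18836 for DCN (10783 to 36454). Without molecular identifiers on the reads, such intervals describe only the error of counting.

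Keratocan (KERA), a keratan sulfate proteoglycan whose mutations cause cornea plana in humans, had 89802 and 89359 normalized counts in E18 cornea, against 604 and 631 in E18 retina. Replicates of each tissue were nearly equal, but here the retinal values rested on 482 and 834 reads, far above the limit of detection. The log2 fold change of KERA was 7.18 ± 0.19 (SE, n = 2 each, adjusted p = 2.07e-08 by limma), a depth-scaled ratio of 144 (95% interval 137 to 152). Osteoglycin (OGN), also called mimecan and first described from bone, had 31399 and 28067 normalized counts in E18 cornea and no read in either E18 retina library. Against 3 reads in the shallower retinal library, OGN was at least 7910-fold higher in E18 cornea, and its adjusted p was 8.6e-08 by limma.

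The other 5 members had fewer reads in cornea. Epiphycan (EPYC), a dermatan sulfate proteoglycan of growth plate cartilage, had 2324 and 1841 normalized counts in E18 cornea, against 3.76 and 3.79 in E18 retina (3 and 5 reads). Asporin (ASPN), a relative of decorin that carries no glycosaminoglycan chain in mammals, had 2544 and 1280 in E18 cornea, against 2.51 and 4.54 in E18 retina (2 and 6 reads). Osteomodulin (OMD), a keratan sulfate proteoglycan of mineralized matrix in mammals, had 788 and 550 in E18 cornea, against 2.51 and 2.27 in E18 retina (2 and 3 reads). Each was high in both cornea libraries and at 6 reads or fewer in both retina libraries. The log2 fold changes were 8.76 ± 0.49 for EPYC and 8.68 ± 0.56 for ASPN (SE, n = 2 each), given without a test because of the filter, and 7.61 ± 0.63 for OMD (adjusted p = 6.59e-06 by limma). With so few retinal reads, the depth-scaled ratio of OMD had a 95% counting interval of 117 to 844.

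Fibromodulin (FMOD), which binds collagen and guides its cross-linking in tendon, had 2981 and 2718 normalized counts in E18 cornea, against 432 and 374 in E18 retina. Prolargin (PRELP), which binds heparan sulfate through its amino-terminal part and anchors basement membranes to collagen, had 3505 and 3841 in E18 cornea, against 233 and 205 in E18 retina. These were the smallest differences among the members, although neither gene overlapped between the tissues. With 2 libraries per group, a lack of overlap between groups, here and below, is only a description. The log2 fold changes were 2.82 ± 0.24 for FMOD and 4.06 ± 0.17 for PRELP (SE, n = 2 each, adjusted p = 8.17e-06 and 1.27e-07 by limma). The depth-scaled ratios were 7.13 (95% interval 6.62 to 7.69) for FMOD and 17.2 (15.6 to 19.0) for PRELP.

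**Figure D1:**
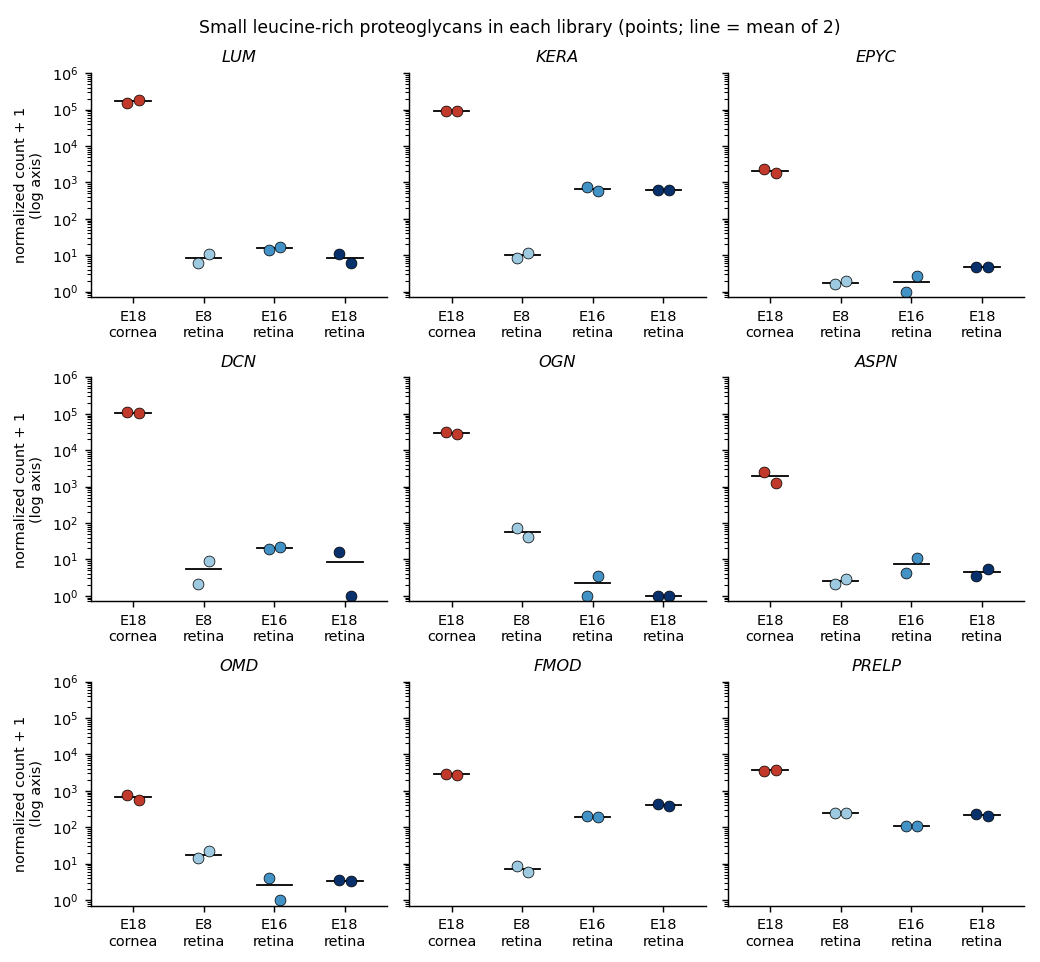
Normalized count + 1 on a log axis for each of the 9 genes, with 1 point per library, a line at the mean of 2 libraries, and E18 cornea left of E8, E16 and E18 retina. All cornea points lie above all retina points, KERA and FMOD lie near 10 or below in E8 retina and above 100 in E16 and E18 retina, and OGN runs the other way in retina.

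Within E18 cornea, the replicates of KERA differed by a factor of 1.00 and those of LUM by 1.29. ASPN differed by a factor of 1.99 between the cornea libraries, a gap reached by only 6.65% of the genes tested, and OMD by a factor of 1.43, reached by 20.2%. ASPN and OMD were both higher in cornea replicate 1. The 9 members together took 1.35% of all reads on genes in each E18 cornea library (Wilson 95% intervals 1.349 to 1.360 and 1.343 to 1.352). In retina they took 0.00131% and 0.00127% at E8, 0.00433% and 0.00379% at E16, and 0.00513% and 0.00483% at E18. The summed share was thus higher in each E16 and E18 retina library than in either E8 library.

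The makeup of these reads also differed, here as shares of reads that are not corrected for transcript length. KERA, FMOD and PRELP together made up 24.6% and 22.7% of the members' reads in E18 cornea, 73.8% and 75.6% in E8 retina, 96.6% and 94.4% in E16 retina, and 97.4% and 98.7% in E18 retina. LUM, the member with most reads in E18 cornea at 37.7% and 45.0% of the members' reads, had 7 to 20 reads in every retina library. At E8 the retinal reads were mainly from PRELP (69.5% and 70.9%), and at E16 mainly from KERA (68.0% and 61.7%).

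Between E16 and E8 retina, KERA and FMOD were higher at E16, OGN, OMD and PRELP were lower, and 4 members did not pass the test. Of all genes tested, 34.1% were higher and 30.3% lower in E16 than in E8 retina. Between E18 and E8 retina, KERA, FMOD and EPYC were higher and OGN and OMD lower, where 35.0% of all genes were higher and 31.4% lower. Between E18 and E16 retina, FMOD and PRELP were higher and the other 7 did not pass the test, where 10.7% of all genes were higher and 7.87% lower. The median log2 fold changes of the members were 0.90, 0.02 and -0.06 in these comparisons, against 0.04, 0.04 and 0.02 over all genes. Without EPYC and ASPN the medians were 0.90, -0.13 and -0.06. The comparisons share libraries, so their values for a gene are not independent. On the 6 retina libraries alone, 7 of the 9 members would have passed the filter, the exceptions being EPYC and ASPN.

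KERA had 7.62 and 10.8 normalized counts in E8 retina, 729 and 569 in E16 retina, and 604 and 631 in E18 retina. The E8 libraries, with 13 and 11 reads, lay far below the others, while the E16 and E18 libraries overlapped. KERA rose 64.1-fold in E16 against E8 retina on the log2(normalized count + 1) scale (SE of the log2 fold change 0.19, adjusted p = 7.34e-08 by limma) and 61.4-fold in E18 against E8 retina (log2 fold change 5.94, adjusted p = 5.64e-08 by limma). Between E18 and E16 its log2 fold change was -0.06 ± 0.19 (SE, adjusted p = 0.852 by limma), and the depth-scaled ratio of reads was 0.971 (95% interval 0.900 to 1.05).

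FMOD had 7.62 and 4.90 normalized counts in E8 retina, 199 and 192 in E16 retina, and 432 and 374 in E18 retina. The 3 stages did not overlap, and each later stage lay above the one before. FMOD rose 27.5-fold in E16 against E8 retina (log2 fold change 4.78 ± 0.24 SE, adjusted p = 8.26e-07 by limma) and 56.5-fold in E18 against E8 retina (5.82, adjusted p = 2.18e-07 by limma). Between E18 and E16 retina it was 2.05-fold higher (log2 fold change 1.04, adjusted p = 0.0221 by limma). That last call was lost on leaving out any 1 of the 4 libraries compared (adjusted p 0.0782 to 0.195 by limma), while the log2 fold change stayed between 0.93 and 1.14.

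PRELP had 243 and 239 normalized counts in E8 retina, 108 and 109 in E16 retina, and 233 and 205 in E18 retina. Its level was lowest at E16, where both libraries lay below all those of E8 and E18. The log2 fold change was -1.14 ± 0.17 between E16 and E8 retina (SE, adjusted p = 0.000353 by limma) and 1.00 ± 0.17 between E18 and E16 retina (adjusted p = 0.00759 by limma). Between E18 and E8 retina it was -0.14 (adjusted p = 0.483 by limma), with a depth-scaled ratio of 0.894 (95% interval 0.792 to 1.01). The call between E18 and E16 was lost without E16 replicate 1 (adjusted p = 0.0637 by limma), E16 replicate 2 (0.0548) or E18 replicate 1 (0.0939).

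FMOD and PRELP thus moved differently in the retina although they lie next to each other in the GRCg7b annotation. FMOD made up 46.0% and 41.4% of the reads of the pair in E18 cornea, 3.04% and 2.01% in E8 retina, 64.7% and 63.7% in E16 retina, and 65.0% and 64.6% in E18 retina. The share of FMOD was therefore nearly equal at E16 and E18, where both genes were higher at E18. The share of KERA against LUM was likewise lower in E8 than in E16 and E18 retina. KERA made up 37.8% and 32.0% of the reads of KERA and LUM in E18 cornea, 59.1% and 52.4% in E8 retina, 98.3% and 97.2% in E16 retina, and 98.4% and 99.2% in E18 retina. At E8 these shares rest on 22 and 21 reads (Wilson 95% intervals 38.7 to 76.7% and 32.4 to 71.7%), whereas the E16 and E18 shares have intervals that start at 95.7% or above.

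OGN had 70.3 and 41.2 normalized counts in E8 retina (120 and 42 reads), 0 and 2.45 in E16 retina (0 and 3 reads), and no read in E18 retina. The E8 libraries lay above all later ones. OGN fell with a log2 fold change of -4.88 ± 0.55 between E16 and E8 retina (SE, adjusted p = 7.78e-05 by limma), where the depth-scaled reads of E8 exceeded those of E16 by a factor with a 95% interval of 14.5 to 211. Between E18 and E8 retina OGN was at least 14.8-fold lower, against 3 reads in the shallower E18 library (adjusted p = 2.5e-05 by limma). The limit of detection of 3 reads equals 0.148 RPM (reads scaled to the library total, as in CPM) in E18 retina replicate 1 and 0.0895 RPM in replicate 2. With no OGN read, the Wilson 95% upper limits of its share of the reads on genes were 1.89e-05% and 1.15e-05%.

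OMD, the neighbour of OGN, had 12.9 and 20.6 normalized counts in E8 retina (22 and 21 reads), 3.15 and 0 in E16 retina, and 2.51 and 2.27 in E18 retina, where no library exceeded 3 reads. Both E8 libraries lay above all later ones. OMD fell by 3.09 on the log2 scale between E16 and E8 retina (SE 0.63, adjusted p = 0.00245 by limma) and by 2.35 between E18 and E8 retina (adjusted p = 0.00948 by limma). The second call was lost without E8 replicate 2 (adjusted p = 0.0647 by limma).

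In GRCg7b the span of CENPP, a centromere protein gene used by dividing cells, covers ECM2, OMD and OGN. CENPP had 1230 and 1313 normalized counts in E8 retina, 51.5 and 45.8 in E16 retina, and 41.3 and 32.6 in E18 retina. Among the retina libraries it was thus high in the same ones as OGN and OMD. In E18 cornea, where OGN and OMD were highest, CENPP had 502 and 576, below its E8 level. The reads of OGN came to 5.72% and 3.13% of those of CENPP in E8 retina and to 0 and 5.36% in E16 retina, but to 6258% and 4872% in E18 cornea. Those of OMD came to 1.05% and 1.57% in E8 retina and to 157% and 95.5% in E18 cornea. The libraries were stranded, but the use of strand in the counting is not given in the sources used here, and a part of CENPP transcripts in the retinal OGN and OMD reads was not tested. For ECM2, a leucine-rich relative within the same span, the reads came to 7.58% and 4.78% of those of CENPP in E8 retina and to 58.1 to 91.1% in the later stages.

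LUM, DCN, EPYC and ASPN stayed at or below 26 reads in every retina library. LUM had 5.27 and 9.80 normalized counts in E8 retina, 12.6 and 16.3 in E16 retina, and 10.02 and 5.30 in E18 retina. DCN had 1.17 and 7.84 in E8 retina, 17.9 and 21.2 in E16 retina, and 15.0 and 0 in E18 retina. For both genes the E16 libraries lay above all those of E8 and E18. Between E16 and E8 retina the log2 fold change was 0.90 for LUM (adjusted p = 0.0612 by limma) and 2.23 for DCN (adjusted p = 0.111 by limma), so neither passed the test. The SE of DCN, 1.12, was the same in every comparison and includes the gap between its E18 retina libraries. The DCN difference passed with edgeR on the recovered reads (adjusted p = 0.0382), and that of LUM did not (0.0614). LUM and DCN also missed the threshold between E18 and E8 (adjusted p = 0.972 and 0.928 by limma) and between E18 and E16 retina (0.129 and 0.17).

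ASPN had 1.17 and 1.96 normalized counts in E8 retina, 3.15 and 9.80 in E16 retina, and 2.51 and 4.54 in E18 retina. Its E16 and E18 libraries overlapped, and it passed no test between stages (adjusted p = 0.0527 for E16 against E8, 0.235 for E18 against E8 and 0.478 for E18 against E16 by limma). EPYC had 0.586 and 0.980 normalized counts in E8 retina, 0 and 1.63 in E16 retina, and 3.76 and 3.79 in E18 retina. EPYC passed the test between E18 and E8 (log2 fold change 1.43 ± 0.49 SE, adjusted p = 0.03 by limma), on 3 and 5 reads in E18 retina against 1 and 1 in E8 retina. The depth-scaled ratio was 5.15, with a 95% interval of 1.03 to 49.8, and the call was lost without any 1 of these 4 libraries (adjusted p 0.0592 to 0.115 by limma).

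As a percentage of its own level in E18 cornea, each gene gave a different picture in retina. FMOD reached 0.220% of its cornea mean at E8, 6.86% at E16 and 14.2% at E18, and PRELP 6.56%, 2.96% and 5.97% at these stages. KERA reached 0.0103% at E8, 0.725% at E16 and 0.690% at E18. LUM and DCN, with the most reads among the members in cornea, stayed between 0.00420% and 0.0182% at all stages. Further genes high in E18 cornea, chosen for this comparison after their values were seen, were also low in E18 retina. The epithelial keratins KRT12 and KRT15 were at 0.00113% and 0.00611% of cornea. COL1A2, a chain of collagen I and so of the stroma itself, was at 0.0210%, and COL8A2, of the corneal endothelial list, at 0.0726%. Other genes of the same lists were not low. In E18 retina the epithelial markers KLF5, DSG2 and TP63 reached 4.07%, 3.49% and 1.78% of cornea, and the collagens COL5A1 and COL14A1 reached 9.59% and 5.24%, all above KERA. The remaining corneal endothelial markers were at 1.84% (COL8A1), 15.1% (SLC4A11), 81.4% (TFAP2B), 227% (CDH2) and 6153% (CA2) of cornea.

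**Figure D2:**
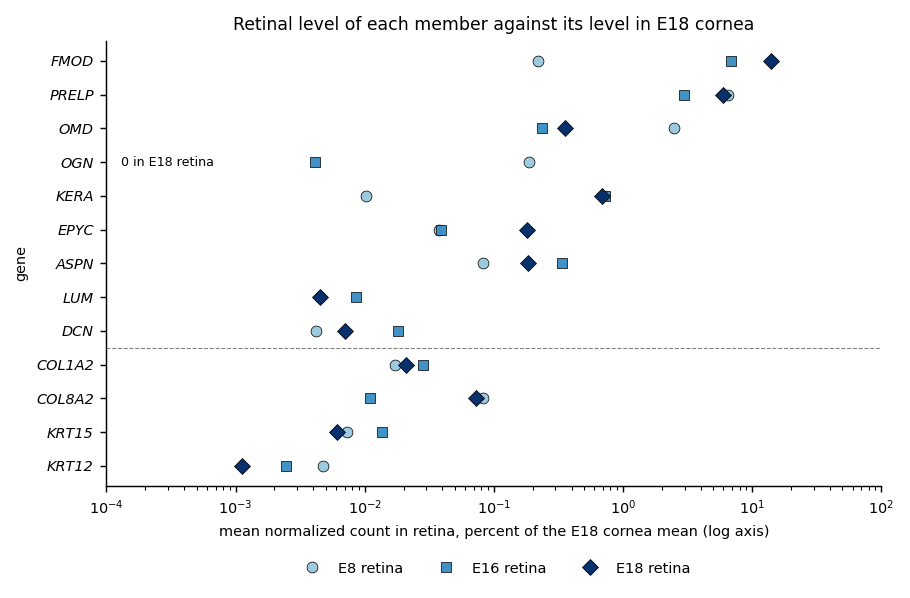
Mean normalized count in retina as a percentage of the E18 cornea mean of the same gene, on a log axis, for the 9 genes (above the dashed line) and 4 other cornea markers (below it), with circles for E8, squares for E16 and diamonds for E18 retina. The 4 markers, COL1A2, COL8A2, KRT15 and KRT12, were chosen after their values were seen, and other genes of their lists were not low in retina. FMOD and PRELP lie between 1 and 20% at E16 and E18, KERA near 0.7%, and LUM, DCN and the keratins below 0.02%; the E8 circle of LUM lies under its E18 diamond, and OGN has no E18 point because it was at 0.

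Some markers of other tissues moved in retina together with KERA and FMOD. The summed level of the 12 corneal epithelial markers with a row was 127 to 139 normalized counts in E8 retina, 211 to 246 in E16 retina and 386 to 398 in E18 retina, against 383197 to 401354 in E18 cornea. In E18 retina 7 of these 12, KRT12 among them, had at most 3 reads in both libraries. Of these 7, KRT5 was 0 in every library, E18 cornea included, so its absence from retina tells nothing. KLF5, a transcription factor of many epithelia, accounted for most of the sum in E16 and E18 retina, with 2.93 and 2.94 normalized counts in E8 retina, 118 and 129 in E16 retina, and 268 and 251 in E18 retina. TP63 was the other epithelial marker that was higher at E16 and E18 than at E8, while KRT12 and DSG2 were lower in E18 than in E8 retina (log2 fold changes -1.74 and -1.52), and the remaining 7 of the 11 tested were not called between E18 and E8. The 6 bone markers with a row summed to 110 to 134 in E8 retina, 455 to 508 in E16 retina and 628 to 770 in E18 retina, and 5 of them were higher in E16 than in E8 retina. The sum of 12 markers of the retinal pigment epithelium was 466 to 520, 1743 to 2370 and 1382 to 1393 at these stages, and that of 9 lens markers 163 to 186, 1222 to 1313 and 1609 to 1975. At E16 a single gene carried most of each of these sums. ALPL, of the bone list, had 80.9 and 108 normalized counts in E8 retina and 356 and 377 in E16 retina. DCT, of the pigment epithelium, had 99.0 and 116, then 1830 and 1125. CRYBB2, of the lens, had 10.5 and 11.8, then 985 and 1023. Of 11 pigment epithelial markers tested 6 were higher, and of 9 lens markers 5 were higher and 1 lower, both in E16 and in E18 against E8 retina. Against E8 retina, 34.1% of all genes were higher and 30.3% lower in E16, and 35.0% higher and 31.4% lower in E18 retina.

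Among 10 cartilage markers tested, 4 were higher and 2 lower in E16 than in E8 retina, and 6 were higher and 3 lower in E18 than in E8 retina. HAPLN1, MATN1 and ACAN, matrix genes of cartilage, had log2 fold changes of 4.78, 4.47 and 3.51 between E18 and E8. MATN1 had 0 normalized counts in both E8 libraries and 23.8 and 18.9 in E18 retina, so its value depends on the 1 added before the log2. It passed the filter on low counts only through the later retina libraries, so its direction is a description. The row of COL2A1, a collagen of cartilage, was 0 in every library, E18 cornea included, so it tells nothing about these differences. The summed level of the cartilage markers was 1254 to 1511 in E8 retina, 1188 to 1393 in E16 retina and 1661 to 2095 in E18 retina. Of 8 markers of vessel endothelium, 3 were higher and 4 lower in E18 than in E8 retina, with ESAM, a junction protein, at a log2 fold change of 7.21 and the receptor gene TIE1 at -3.57. The numbers higher and lower between E18 and E8 were 4 and 1 of 6 for corneal endothelium, 0 and 1 of 6 for pericytes and smooth muscle, and 0 and 2 of 3 for red blood cells. The part of any of these cells in the retinal KERA and FMOD reads was not tested.

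The members lie in 3 groups in the GRCg7b annotation, which is later than the galGal4 build used by the authors and served only for names and neighbours. EPYC, KERA, LUM and DCN are consecutive protein-coding genes, and OMD and OGN are adjacent, as are FMOD, PRELP and OPTC. The annotation has no gene named ASPN, and the gene between ECM2 and OMD carries the name BGN, so the identity of the ASPN row rests on the symbol in the deposited table. A long noncoding RNA overlaps both KERA and EPYC in GRCg7b, and others overlap DCN, FMOD and PRELP. If strand was not used in the counting, reads of such partners cannot be told apart from those of the members.

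Within each group, the flanking genes measured here, apart from OPTC, differed less between E18 cornea and E18 retina than the members did. OPTC, the leucine-rich relative beside PRELP, had a log2 fold change of -6.24, larger in size than 2.82 for FMOD and 4.06 for PRELP. Around EPYC to DCN, the log2 fold change between E18 cornea and E18 retina was -3.10 for ATP2B1, a plasma membrane calcium pump, 0.53 for BTG1, an antiproliferative factor, 1.78 for WDR51B and 3.78 for PLEKHG7, against 7.18 to 14.71 for the 4 members. CENPP, which overlaps OMD and OGN, had 3.84. NOL8, on the other side of OGN, had a log2 fold change of 0.16 (adjusted p = 0.587 by limma), and BTG2, beside FMOD, had -0.34 (adjusted p = 0.341 by limma). In retina, KERA differed most among the 4 adjacent members between E18 and E8. There the log2 fold changes were 5.94 for KERA, 1.43 for EPYC, 0.02 for LUM and -0.13 for DCN. The flanking genes had 1.34 (ATP2B1), -0.74 (BTG1), -2.37 (WDR51B) and -0.73 (PLEKHG7), so WDR51B differed more than EPYC, LUM and DCN. In the third group FMOD had 5.82, PRELP -0.14 and OPTC 0.67 (adjusted p = 0.188 by limma), with BTG2 at -0.93 and ATP2B4 at -0.31.

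**Figure D3:**
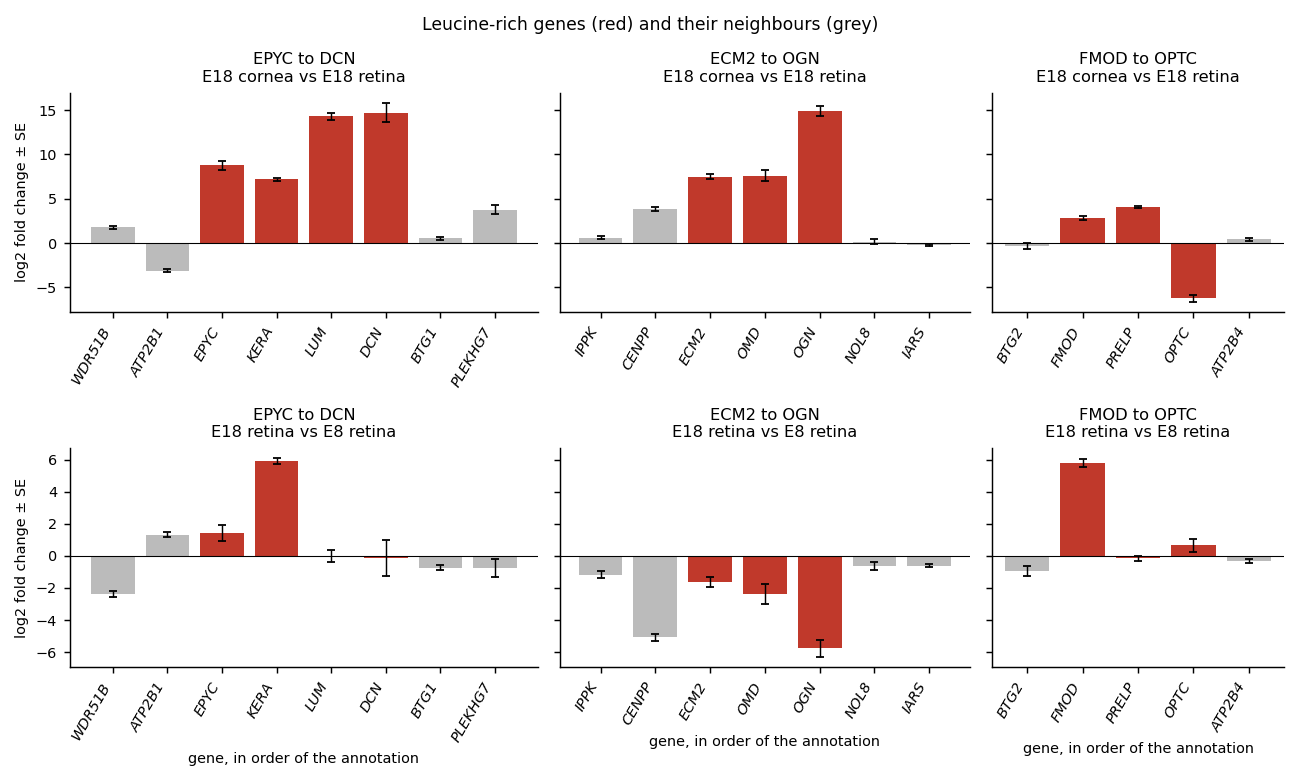
Log2 fold change ± SE (n = 2 libraries per group) of the members and relatives (red) and of the genes around them (grey), in annotation order, for E18 cornea against E18 retina (upper panels) and E18 retina against E8 retina (lower panels). In the upper panels the red bars are positive except OPTC at -6.24, and in the lower panels KERA at 5.94 and FMOD at 5.82 stand above their neighbours while OGN at -5.78 and CENPP at -5.08 are the lowest.

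Of 9 related leucine-rich genes listed, 7 had a row and were tested. Of these, 4 were higher and 2 lower in E18 cornea than in E18 retina, beside 36.9% and 34.5% of all genes. ECM2, a matrix protein encoded near OMD, had 4708 and 4178 normalized counts in E18 cornea, against 30.1 and 18.9 in E18 retina (log2 fold change 7.48). Opticin (OPTC), a glycoprotein of the vitreous, ran the other way, with 22.1 and 65.1 in E18 cornea against 2683 and 3232 in E18 retina (log2 fold change -6.24). Nyctalopin (NYX), which organizes the synaptic signalling of ON bipolar cells, had 18.4 and 9.83 in E18 cornea against 710 and 748 in E18 retina (log2 fold change -5.65). OPTC and NYX did not overlap between the tissues, and all 3 passed the test.

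Across the retinal stages, NYX had 4.69 and 12.7 normalized counts in E8 retina, 665 and 757 in E16 retina, and 710 and 748 in E18 retina. Like KERA, it was low at E8 and overlapped between E16 and E18, with log2 fold changes of 6.33 between E16 and E8 and 6.37 between E18 and E8. Podocan (PODN), a collagen-binding relative, had 12812 and 11423 in E18 cornea, and 69.1 and 81.3 in E8 retina, 828 and 552 in E16 retina and 231 and 277 in E18 retina. PODN was thus highest in retina at E16. Its log2 fold change between E18 and E8 was 1.74, and it fell between E18 and E16 by 1.42 on the log2 scale. In all, 4 relatives were higher and 1 lower in E16 than in E8 retina, 5 were higher and 1 lower in E18 than in E8 retina, and 1 was higher and 1 lower in E18 than in E16 retina. The shares of all genes were 34.1% and 30.3%, 35.0% and 31.4%, and 10.7% and 7.87%.

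**Figure D4:**
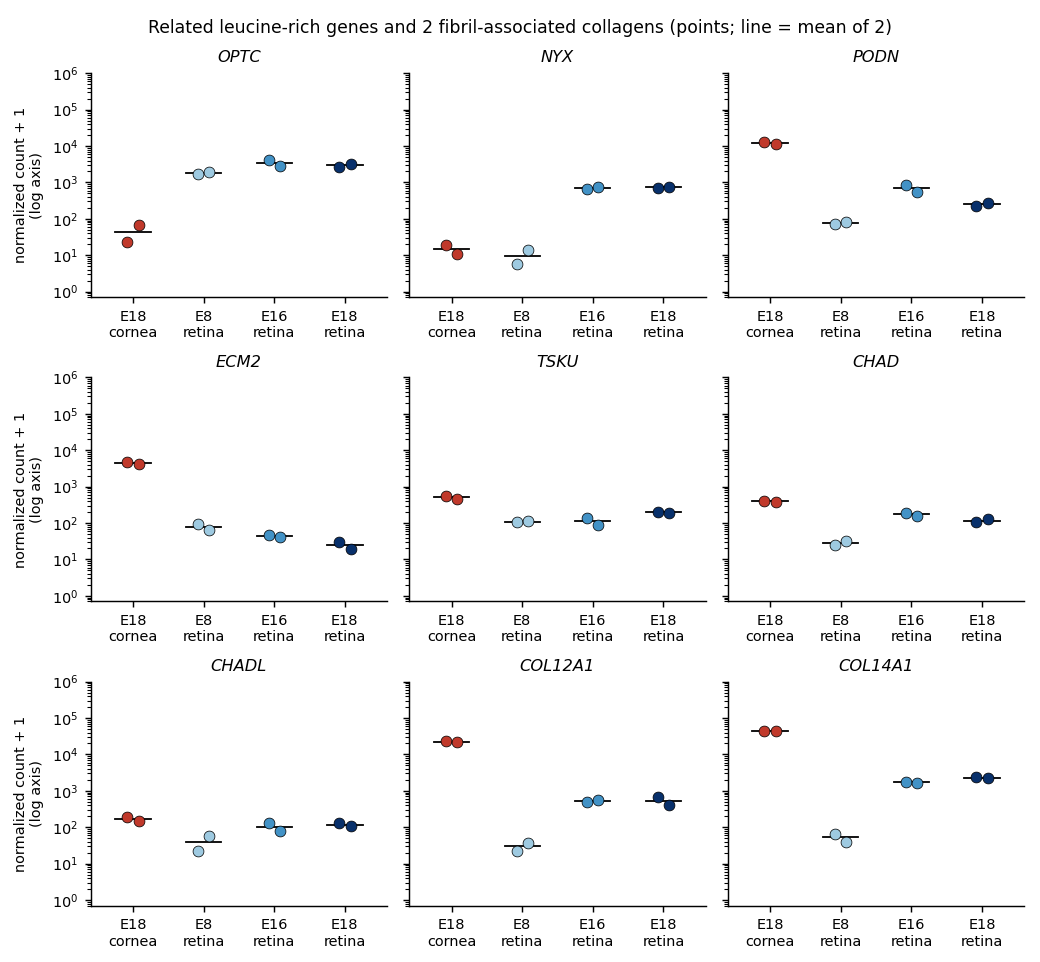
Normalized count + 1 on a log axis for 7 related leucine-rich genes and 2 fibril-associated collagens, with 1 point per library and a line at the mean of 2 libraries, and E18 cornea left of E8, E16 and E18 retina. OPTC and NYX are higher in E18 retina than in E18 cornea, and NYX, COL12A1 and COL14A1 lie below 100 in E8 retina and above 400 in E16 and E18 retina.

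The collagens that SLRPs bind were higher in E18 cornea throughout: 10 of the 10 tested, beside 36.9% of all genes. Their log2 fold changes had a median of 6.61 and were largest for COL1A2 (12.22), COL6A3 (9.43) and COL6A1 (8.09). COL2A1 was listed at 0 in all 8 libraries, and no row was found for COL1A1, COL5A3 and COL11A2. In retina, 5 were higher and 3 lower in E16 than in E8, 7 higher and 1 lower in E18 than in E8, and 5 higher in E18 than in E16. The shares of all genes were 34.1% and 30.3%, 35.0% and 31.4%, and 10.7% higher. Those with the largest differences between E18 and E8 were COL14A1 and COL12A1, which coat the surface of collagen I fibrils. COL14A1 had 64.4 and 39.2 normalized counts in E8 retina, 1722 and 1691 in E16 retina, and 2449 and 2196 in E18 retina. COL12A1 had 21.7 and 36.3, 500 and 547, and 662 and 406 at these stages. COL1A2, by comparison, had a log2 fold change of 0.28 between E18 and E8 retina (adjusted p = 0.141 by limma).

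Enzymes that build the glycosaminoglycan chains differed less uniformly between the tissues. Of 6 keratan sulfate genes tested of 10 listed, 3 were higher and 2 lower in E18 cornea than in E18 retina, beside 36.9% and 34.5% of all genes. Their median was 0.82 on the log2 scale. B3GNT7, which adds N-acetylglucosamine to the growing keratan sulfate chain, had 3112 and 3076 normalized counts in E18 cornea, against 7.52 and 4.54 in E18 retina (log2 fold change 8.82). B3GNT7 passed the filter on low counts only through the cornea libraries. Its direction between the tissues was thereby fixed, so the count of 3 is a description. CHST1, a galactose sulfotransferase of keratan sulfate, had a log2 fold change of 1.94, and FUT8, which fucosylates the core of N-glycans, of -1.96. In retina, 5 of the 6 were higher in E16 than in E8, and 4 in E18 than in E8, led by B3GNT2 with 2.61. The 5 include B3GNT7, with few reads at 1.17 and 3.92 normalized counts in E8 retina and 7.36 and 12.3 in E16 retina. The shares of all genes higher were 34.1% and 35.0%. Between E18 and E16 retina the adjusted p of the 6 ranged from 0.0636 to 0.504 by limma.

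Of 18 chondroitin and dermatan sulfate genes tested, 12 were higher and 5 lower in E18 cornea than in E18 retina, beside 36.9% and 34.5% of all genes. The largest log2 fold changes were those of CHST13 (3.69), DSE (3.51), the epimerase that turns chondroitin into dermatan sulfate, and CSGALNACT1 (3.14), which starts the chain. In retina, 7 were higher and 5 lower in E16 than in E8, 8 higher and 6 lower in E18 than in E8, and 2 higher and 1 lower in E18 than in E16. The shares of all genes were 34.1% and 30.3%, 35.0% and 31.4%, and 10.7% and 7.87%, so the counts are given as a description. CHST15 had the largest difference between E18 and E8 retina, with a log2 fold change of 2.74, and DSE that between E18 and E16 retina, with 1.94. Of 4 genes for tyrosine sulfation and propeptide cleavage tested, 1 was higher (TPST1, 1.02) and 2 were lower in E18 cornea (PCOLCE2, -0.56, and TLL1, -0.53). In the retina, TPST2, a tyrosine sulfotransferase, had a log2 fold change of 1.59 between E18 and E8.

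For each member, the other genes with the most similar profile over the 8 libraries were found by the root mean square difference of centred log2 values among 9732 genes. The difference between E18 cornea and retina dominates this measure. All genes share the same 8 libraries, and the likeness is given as a description. BNC1, a zinc finger gene of stratified epithelia, and LOX, which cross-links collagen, were nearest to KERA, at 0.619 and 0.752. LOX had 40239 and 47950 normalized counts in E18 cornea, 17.0 and 16.7 in E8 retina, 511 and 542 in E16 retina, and 1012 and 774 in E18 retina. FMOD was nearest to XDH (0.419) and SULT1E1 (0.479), which likewise had few counts at E8 and more at E16 and E18. PRELP was nearest to COL22A1 (0.164) and CD109 (0.216), LUM to KRT15 (0.420), and DCN to KRT15 (1.23) and FGFBP1 (1.26). For OGN the nearest genes, ANXA1 and OSF-2, were farther away, at 1.86 and 1.87. EPYC was nearest to SH2D4A (0.445) and LAD1 (0.485), ASPN to MUC16 (0.470) and LAD1 (0.487), and OMD to F2RL1 (0.546) and MUC13 (0.680).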

How the data were processed

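Stranded poly(A) libraries, 8 in all and 2 per group, were sequenced. The authors aligned reads with STAR 2.5.1b to galGal4, assigned them to genes by featureCounts 1.5.0 and normalized by DESeq2 1.6.2. The deposited values are a signal, the read count of a gene over the size factor of its library. The annotation release and the strand setting of the counting are not given in the sources used here. Whole reads were recovered from 100% of values (tolerance 0.001, largest deviation 0.00017).

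With R 4.3.3, limma 3.58.1 was fitted to log2(value + 1) over all 8 libraries, with 1 term per group, eBayes and a trend, on the 13194 genes kept by filterByExpr of edgeR 4.0.16 (minimum count 10). A gene was called at a Benjamini-Hochberg adjusted p under 0.05. Values of 3 reads or fewer were treated as the limit of detection, and 95% intervals were Wilson intervals for shares and exact conditional binomial intervals for ratios of reads. Alternatives were other pseudocounts, no filter, TMM scaling, edgeR and DESeq2 1.42.0 on recovered reads, the compared libraries alone, a replicate block and leaving out each library. Python 3.11.15, NumPy 2.4.6, SciPy 1.17.1 and matplotlib 3.10.9 made the tables and figures. The fit was tested on simulated data.

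The members and gene lists were chosen with earlier results of these data known. All members were named, and of each other list the 3 called genes with the largest absolute log2 fold change were eligible for naming, with neighbours in the annotation and the 2 nearest profiles of each member, of which 1 is not reported here. Other genes named with values were chosen after these were seen, such as KRT12, KRT15, KLF5 and COL1A2. Of the table's names, 12487 matched GRCg7b, including 8 of the 9 members. For corneal endothelium, cartilage, vessels, pericytes and red blood cells, 6, 10, 8, 6 and 3 genes were tested. Of these, 3, 6, 5, 5 and 3 were higher in E18 cornea, beside 36.9% of all genes. In the other direction, 2, 3, 3, 0 and 0 were lower than in E18 retina, beside 34.5% of all genes. Some of them, such as ERG, could pass the filter only through the cornea libraries, so these counts are a description.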

Additional observations from a re-analysis of the deposited data

How the results depend on the processing

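The 7 members other than EPYC and ASPN stayed higher in E18 cornea than in E18 retina under every alternative run. Their calls stayed the same wherever both libraries of each group were kept. With 1 library left out, the log2 fold change stayed between 2.72 and 2.92 for FMOD and between 12.71 and 16.71 for DCN. EPYC and ASPN also stayed higher, but they passed the filter only through the cornea libraries, so this is given as a description. Direction changed only where differences were small or reads few. For DCN between E18 and E8 retina the log2 fold change was -0.13, but 0.17 with 8 added to the values, 0.037 with TMM scaling, 0.60 with edgeR and 0.74 with DESeq2. For EPYC between E16 and E8 retina it was -0.13, but 0.27 with edgeR and 0.32 with DESeq2, and for LUM between E18 and E8 0.02, but -0.0053 with TMM scaling and -0.0037 with edgeR. Leaving out 1 library at a time gave log2 fold changes between E18 and E8 of -2.13 to 1.87 for DCN and -0.39 to 0.42 for LUM, between E16 and E8 of -0.83 to 0.57 for EPYC, and between E18 and E16 of -1.29 to 0.086 for ASPN, -0.24 to 0.12 for KERA and -0.29 to 1.76 for OMD. The cause was not tested. The number of members called under such omissions was 5 to 7 between E16 and E8, 3 to 5 between E18 and E8 and 0 to 2 between E18 and E16 retina. Genes called between E18 and E16 retina numbered 2450, against 5638 with only the 4 libraries compared and 90 to 3097 under omissions. The call of EPYC between E18 and E8 retina was also lost with 8 added (adjusted p = 0.124 by limma) and with DESeq2 (0.0639). Same-numbered libraries did not deviate together (correlations -0.05 to 0.05), so no pairing was used. The study gives same-numbered libraries the same subject label in every group, E18 cornea and E18 retina included, but also across ages. Whether an E18 cornea and an E18 retina library of the same number came from 1 embryo was thus not settled by the sources used here, and their correlation was 0.05. A replicate block gave 9361, 8416, 8692 and 2260 genes called, against 9420, 8495, 8763 and 2450 without it (E18 cornea against E18 retina, E16 against E8, E18 against E8 and E18 against E16 retina), and left the member counts at 9, 5, 5 and 2. Depth limits LUM, DCN, EPYC, ASPN, OMD and OGN in retina, where single reads carry the values, and groups of 2 limit all tests.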
